A study of Mus musculus with 338 samples.

Results

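The response of AKR/J pancreatic islets to a high-fat, high-sugar (HFHS) diet at day 10 was taken from 12 RNA-sequencing libraries, 3.55% of those in the series. The libraries were chosen by their labels alone: AKR/J, day 10, with mice 13 to 18 on HFHS (6 libraries) and mice 13 to 18 on regular chow (RC, 6 libraries). The study followed islets of 6 inbred mouse strains on these 2 diets at days 2, 10, 30 and 90, and its title describes molecular phenotyping of the strains under metabolic challenge. Each library came from a different mouse, from at least 150 isolated islets and 200 ng of total RNA. Both groups were unmodified AKR/J mice and differed in diet only, as far as the labels say. The labels give neither age nor sex. The Y-linked gene Ddx3y was read at 57.2 to 93.2 CPM (counts scaled to a common library size) in HFHS islets and at 49.4 to 86.7 CPM in RC islets.

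Islets are clusters of endocrine cells: beta cells secrete insulin, alpha cells glucagon, delta cells somatostatin and PP cells pancreatic polypeptide. Isolated islets also carry vessels, stellate cells and fibroblasts, nerve endings with their Schwann cells, resident macrophages and some exocrine tissue. When the supply of fat and sugar rises, beta cells are known to secrete more insulin, to switch the balance between fat synthesis and fat oxidation, and in mice to divide. Fatty acids enter mitochondria through the carnitine shuttle, whose first step is catalysed by carnitine palmitoyltransferase 1. Incretin hormones and fatty acids act on beta cell receptors that raise cyclic AMP or calcium and so enhance insulin release.

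The reads assigned to genes numbered 20149354 to 25251705 per HFHS library and 25569809 to 27591679 per RC library, so the groups did not overlap in depth (exact two-sided permutation test, p = 0.00216). The 2 insulin genes took 21.6 to 27.9% of the reads in HFHS libraries and 20.2 to 29.5% in RC libraries (exact p = 0.517), and the markers of alpha, delta and PP cells were read in every library as well. Within a group, each of 30 pairs of libraries differed well beyond sampling noise (chi-square of 10.05 to 91.74 for each degree of freedom), so none was treated as a repeat. The RC libraries were uneven. RC mouse 18 stood apart: it was the RC library nearest to the HFHS level for 1166 of the 1538 genes that rose (75.8%) and for 1078 of the 1575 that fell (68.4%). RC libraries 13, 15 and 17 counted short transcripts more and long ones less, with slopes of the log2 count on transcript length between -0.24 and -0.236 per doubling, against -0.0526 to 0.0007 in the HFHS libraries and 0.0237 in RC 18. Length slopes differed between the diets (exact p = 0.0216), as did slopes on GC content (0.0959 to 0.217 log2 units per 10 percentage points in HFHS, 0.142 to 0.463 in RC, exact p = 0.039). Over all genes, the median log2 fold change ran accordingly: it was -0.17 in the class with the shortest transcripts and 0.17 in the class with the longest, out of 5 classes of equal size. Fold changes are therefore given as counted, and also with each library's own GC and length curves removed (the corrected fit). The medians of the 5 length classes were then between 0.00124 and 0.00717. The curves were fitted on length, so these medians were bound to come near 0. Removing them can also remove a diet effect that runs with length or GC content, which was not tested.

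**Figure D1:**
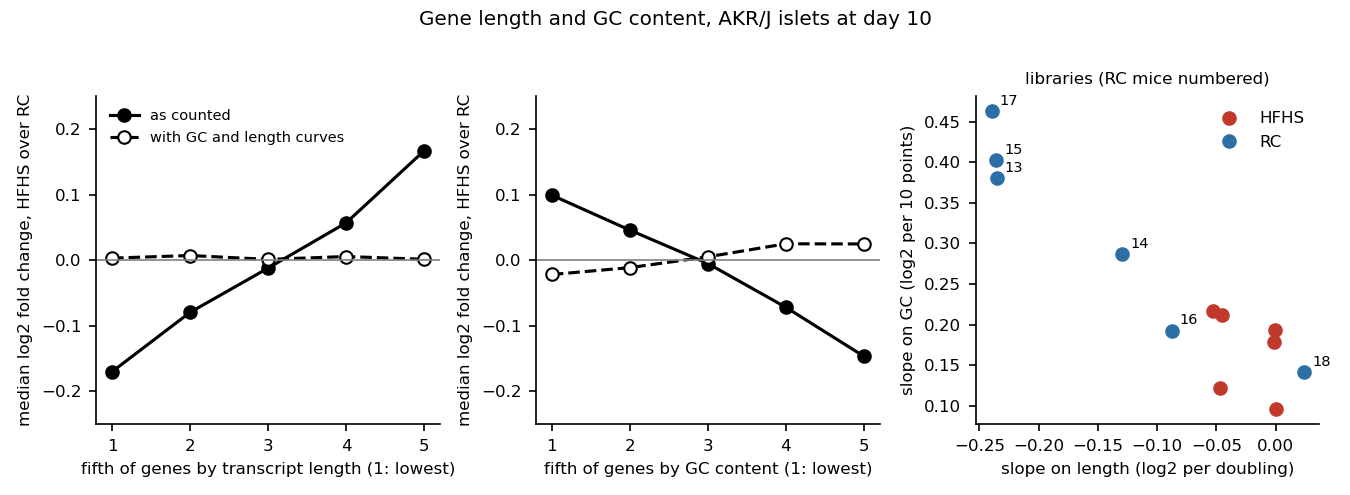
Median log2 fold change (HFHS over RC) in 5 classes of genes by transcript length (left) and GC content (middle), as counted (filled) and with GC and length curves removed (open), and each library's slopes on length and GC (right, RC mice numbered). As counted, the medians climb with length, between -0.17 and 0.17, and fall with GC content, between 0.10 and -0.15; the HFHS libraries lie close together, while RC 13, 15 and 17 lie at the negative end of the length slope and RC 18 lies beside the HFHS libraries.

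At day 10, 3113 of 15465 genes tested differed between HFHS and RC islets (20.1%) at a Benjamini-Hochberg adjusted p under 0.05 in edgeR's quasi-likelihood test; 1538 were higher on HFHS (9.95%) and 1575 lower (10.2%), and the median log2 fold change of all genes was -0.02. In the corrected fit 2036 genes passed (13.2%; 7.07% higher, 6.1% lower), of which 1376 had passed as counted with the same sign. The count depended on single chow libraries. It was 1121 without RC 13 (7.27%; 3.66% higher, 3.6% lower), 1320 without RC 17, 1786 without RC 15 and 4922 without RC 18 (31.9%; 17.7% higher, 14.2% lower). With GC curves alone removed 2577 genes passed (16.7%), with the 12 libraries alone 1766, with the day 10 libraries of all strains 275, and with every library of the series in one fit 24, each of these 24 also among the 3113. Leaving out each library in turn kept 901 calls, and 657 of those also passed in both fits with curves removed (349 higher, 308 lower). Groups that did not overlap at all in CPM were mostly lower ones: among all genes tested, 93 had every HFHS library above every RC library (0.601%) and 374 had every HFHS library below (2.42%), together 3.02%. In a bulk sample, fewer cells of a type and less RNA per cell cannot be told apart, and that holds for each cell type named here. Passing every one of 24 alternative settings were 23 genes, among them Cpt1a, Gucy2c and Tacc2 among the 10 risen, and Cartpt, Tac1, Npy, Gap43 and Smoc2 among the 13 fallen.

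The entry enzyme of fat oxidation rose. Cpt1a, the liver-type carnitine palmitoyltransferase that controls fatty acid entry into mitochondria, was read at 66.2 to 99 CPM in HFHS islets (median 77) and at 30.8 to 62.1 CPM in RC islets (median 39.2). Every HFHS library lay above every RC library, and the highest RC value was RC 18. The log2 fold change was 0.92 (SE 0.12, adjusted p = 3.67e-06) and stayed at 0.92 in the corrected fit. Slc25a20, the carnitine-acylcarnitine carrier of the same shuttle, also rose (20.4 to 30.5 CPM on HFHS, 17.1 to 22.2 CPM on RC, log2 fold change 0.34, SE 0.09, adjusted p = 0.0121). The third riser was Angptl4, a lipoprotein lipase inhibitor induced by fatty acids through PPAR receptors (log2 fold change 0.95, SE 0.32, adjusted p = 0.031). Most of the list of fatty acid oxidation genes and PPAR targets did not pass: of 35 tested, 3 rose and 2 fell, with a median of -0.05. Over all genes tested, 9.95% rose and 10.2% fell as counted. In the corrected fit 5 rose and 1 fell, with a median of 0.02, where 7.07% of all genes rose and 6.1% fell. Both that fell as counted lost significance in the corrected fit: Acads, a short-chain acyl-CoA dehydrogenase, at 19.1 to 21 CPM on HFHS and 22.8 to 27.1 CPM on RC (log2 fold change -0.26, corrected -0.03), and Acaa1b, a peroxisomal thiolase (-0.54, corrected -0.30).

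Several genes of receptors and signalling proteins rose, some of them known to act on insulin release. Gucy2c, the receptor guanylate cyclase known from the gut as the target of guanylin and uroguanylin, stood at 51.5 to 110 CPM in HFHS islets (median 64.3) and 27.8 to 35.9 CPM in RC islets (median 30.2). The groups were fully apart, and HFHS 17 was the single highest library at 109.8 CPM, with the other HFHS libraries at or below 64.7 CPM. Its log2 fold change was 1.13 (SE 0.19, adjusted p = 0.000171). Glp1r, the receptor for the incretin GLP-1, was read at 300 to 352 CPM on HFHS (median 315) and 156.02 to 312 CPM on RC (median 199). RC 18, at 312 CPM, was the only RC library that reached the HFHS range, and the log2 fold change was 0.60 (SE 0.14, adjusted p = 0.00451). Ffar1, the long-chain fatty acid receptor of beta cells, showed the same layout, at 56.8 to 68.5 CPM on HFHS and 29.2 to 59.5 CPM on RC, again with RC 18 as the highest chow library (log2 fold change 0.73, SE 0.18, adjusted p = 0.00641). Of 20 tested genes of cyclic AMP, incretin and calcium signalling, 7 rose and none fell (median 0.15), as did 8 in the corrected fit, 5 without RC 13 and 10 without RC 18. The others that rose were Adcy9, an adenylate cyclase (0.66), Chrm3, the muscarinic acetylcholine receptor of beta cells (0.45), Pde3b, a phosphodiesterase that degrades cyclic AMP (0.38), and Adra2a, an adrenergic receptor that restrains insulin release (0.29). This list holds members that enhance and members that restrain secretion. Of all genes tested, 9.95% rose as counted, 7.07% in the corrected fit, 3.66% without RC 13 and 17.7% without RC 18.

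Beta cell identity genes moved little, and those that passed went up. Ins2 was read at 133490 to 173400 CPM on HFHS (median 159880) and 129080 to 185880 CPM on RC (median 173060), with overlapping groups (log2 fold change -0.09, SE 0.11, adjusted p = 0.566). Ins1 likewise overlapped (82473 to 108910 CPM on HFHS, 72972 to 111470 CPM on RC, log2 fold change -0.04, SE 0.12, adjusted p = 0.828). In the corrected fit Ins2 came to 0.20 (adjusted p = 0.038) and Ins1 to 0.09 (adjusted p = 0.5). Of 25 beta cell genes tested 7 rose and none fell (median 0.12), with 6 in the corrected fit, 2 without RC 13 and 12 without RC 18. Among the 7, besides Glp1r, were Ero1lb, an oxidase that forms disulfide bonds in proinsulin (545 to 638 CPM on HFHS, 332 to 585 CPM on RC, log2 fold change 0.42, SE 0.11), the transcription factor Pdx1 (156.1 to 176 CPM on HFHS, 118.5 to 164 CPM on RC, 0.23, SE 0.06), the zinc transporter of insulin granules Slc30a8 (0.24, SE 0.08, corrected adjusted p = 0.0548), and G6pc2, a glucose-6-phosphatase subunit that opposes glucokinase (2239 to 2667 CPM on HFHS, 1658 to 2628 CPM on RC, 0.28, SE 0.10). Mafa, a regulator of mature beta cells, and Slc2a2, their glucose transporter, did not pass (0.10 and 0.33). The shares risen over all genes tested were 9.95% as counted, 7.07% corrected, 3.66% without RC 13 and 17.7% without RC 18.

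**Figure D2:**
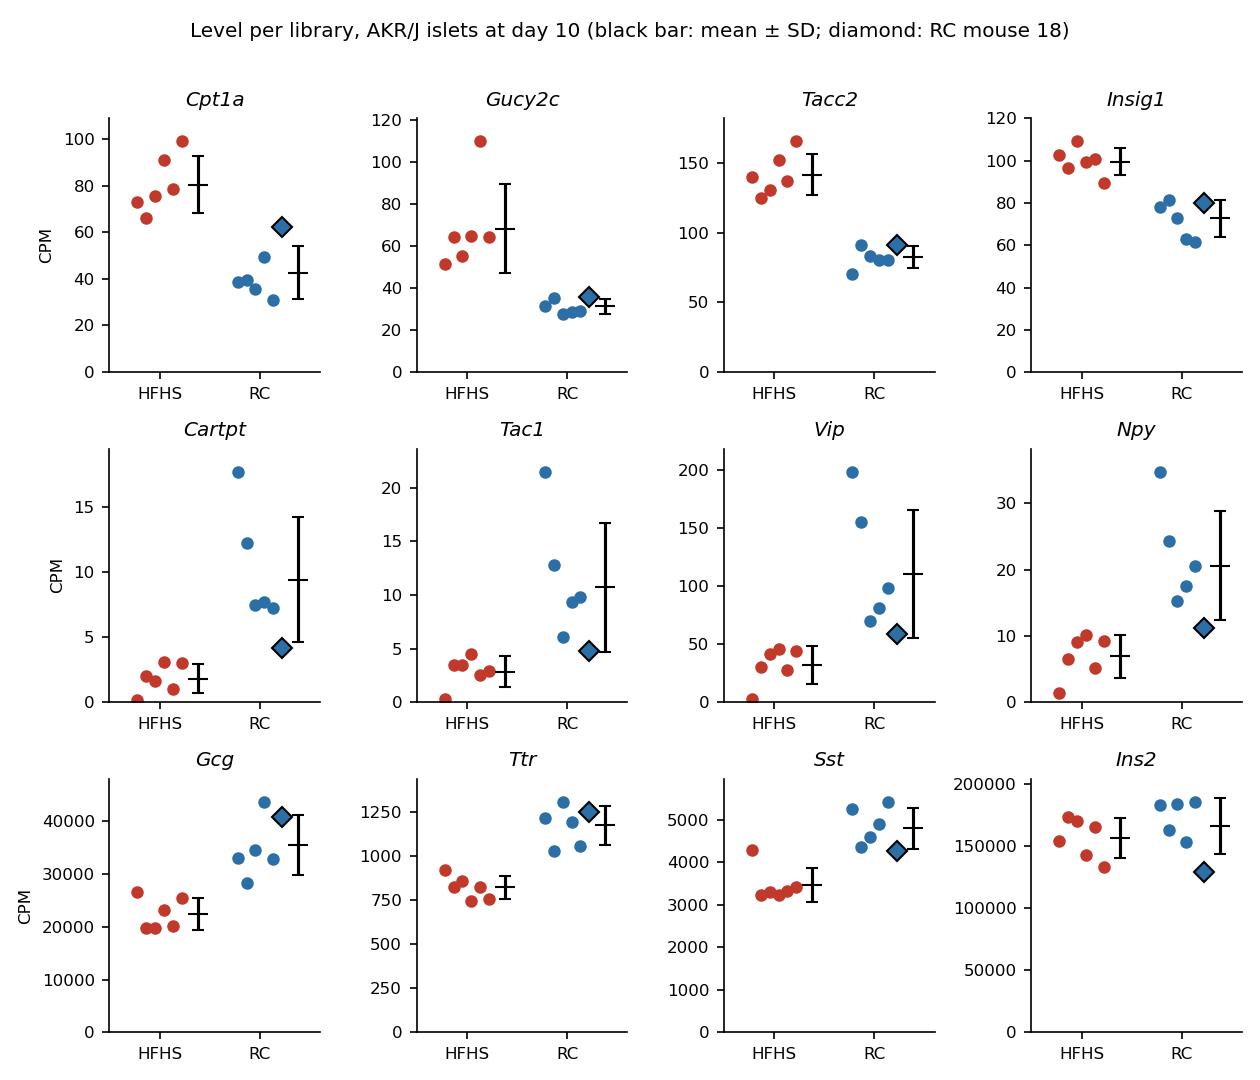
CPM of 12 genes in each of the 6 HFHS (red) and 6 RC (blue) libraries, with the mean ± SD as a black bar and RC mouse 18 as a diamond. Cpt1a, Gucy2c, Tacc2 and Insig1 are higher in every HFHS library than in any RC library; Cartpt, Tac1, Vip, Npy, Gcg and Ttr are lower in every HFHS library; the lowest RC values of Cartpt, Tac1, Vip and Npy are those of mouse 18.

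The remaining large rises were of 2 kinds: some had separate groups, and in most RC 18 was as high as the HFHS mice. Tacc2, a centrosome and microtubule protein, was among the most separate, at 125.3 to 166 CPM on HFHS (median 138.6) and 70.3 to 91 CPM on RC (median 82; log2 fold change 0.77, SE 0.10, adjusted p = 2.48e-06, corrected 0.65). Tsga10, known as a sperm tail protein, had 5.2 to 8.53 CPM on HFHS and 2.5 to 5.17 CPM on RC, just short of overlap (0.80, SE 0.15). Inhbb, the beta B subunit of activins and inhibins, had 7.37 to 12.6 CPM on HFHS and 3.19 to 8.13 CPM on RC (0.79, SE 0.22), with RC 18 alone inside the HFHS range. In 7 more of the 12 largest rises named (past the threshold, with a mean of at least 5 CPM), RC 18 also lay within or above the HFHS range. Lmbrd2 had 19.8 to 29.3 CPM on HFHS and 7.81 to 35.5 CPM on RC, the last being RC 18 (0.90, SE 0.30). Deptor, an inhibitor of the kinase mTOR, had 34.9 to 43 CPM on HFHS and 12.1 to 44 CPM on RC (0.84, SE 0.28). Mib1, a ubiquitin ligase needed for Notch ligand activity, had 39.3 to 53.6 CPM on HFHS and 15.5 to 52 CPM on RC (0.82, SE 0.24). The same held for Dennd4c, an exchange factor for Rab GTPases (0.77), Rora, a clock-related nuclear receptor (0.79), Gpr161, a receptor of the primary cilium (0.80), and Syt14 (0.80). Each of these 7 lost significance without RC 13 and without RC 17, and Syt14 also without any other single library except RC 18.

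The secretory machinery changed in both directions. Of 22 exocytosis genes tested 8 rose and 5 fell (median 0.15). The counts were 6 and 1 in the corrected fit and 4 and 3 without RC 13. Of all genes tested 9.95% rose and 10.2% fell as counted, 7.07% and 6.1% in the corrected fit, and 3.66% and 3.6% without RC 13. Snap25, a core SNARE of vesicle fusion, was lower, at 117.96 to 157.7 CPM on HFHS (median 124.7) and 146.6 to 193 CPM on RC (median 163; log2 fold change -0.33, SE 0.07, adjusted p = 0.00185), and fell further in the corrected fit (-0.49). Chga, chromogranin A of dense-core granules, was lower as counted (6949 to 8691 CPM on HFHS, 8602 to 10745 CPM on RC, -0.31, SE 0.07) and did not pass in the corrected fit (-0.10, adjusted p = 0.157). Scg2, another granin, rose at 9196 to 11339 CPM on HFHS and 7413 to 8949 CPM on RC, with no overlap (0.34, SE 0.09, adjusted p = 0.00962). Rab27a, which tethers insulin granules, rose as well (265 to 302 CPM on HFHS, 208 to 277 CPM on RC, 0.23, SE 0.05), while the priming factor Unc13b rose as counted (0.38, SE 0.09) and not in the corrected fit (0.10, adjusted p = 0.509).

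Cell cycle genes leaned upward, and RC 18 sat with the HFHS mice. The summed level of 32 genes was 161.6 to 294 CPM in HFHS libraries and 129 to 248.7 CPM in RC libraries, where RC 18 at 248.7 CPM stood above the next RC library at 167 CPM. Of the 32 genes 6 rose and none fell (median 0.57), against 18 without RC 18, 3 without RC 13 and 4 in the corrected fit. Cenpa, the centromeric histone, had separate groups (2.6 to 4.11 CPM on HFHS, 1.28 to 2.59 CPM on RC, log2 fold change 0.78, SE 0.25, adjusted p = 0.0249). Tpx2, a spindle assembly factor, was at 3.97 to 7.81 CPM on HFHS and 2.65 to 5.01 CPM on RC (0.85, SE 0.26), Cenpe, a kinetochore motor, at 2.51 to 5.33 CPM and 1.28 to 3.56 CPM (0.93, SE 0.29), and Rrm2, a ribonucleotide reductase subunit, at 5.96 to 8.23 CPM and 3.73 to 6.49 CPM (0.55, SE 0.18). Mki67, the usual proliferation marker, did not pass, at 16.1 to 34.6 CPM on HFHS and 8.45 to 27.1 CPM on RC (0.76, adjusted p = 0.0618). In the list of endoplasmic reticulum (ER) stress and folding, 4 of 26 rose and none fell (median 0.07), with 2 in the corrected fit. Over all genes tested 9.95% rose as counted and 7.07% in the corrected fit. Ern1, the ER stress sensor IRE1, was at 85.3 to 102.1 CPM on HFHS and 43.3 to 103.3 CPM on RC, the highest being RC 18 (0.59, SE 0.17), and Sel1l, of ER-associated degradation, at 183 to 228 CPM and 117.7 to 203 CPM (0.42, SE 0.11, corrected adjusted p = 0.0531). The chaperone cofactor Dnajc3 and the degradation factor Edem1 (0.34 each) did not pass in the corrected fit.

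Several alpha cell genes fell. Gcg, which encodes glucagon, was read at 19769 to 26472 CPM in HFHS islets (median 21607) and 28311 to 43600 CPM in RC islets (median 33745). No HFHS library reached the lowest RC library, and RC 16 and RC 18 were the highest. The log2 fold change was -0.66 (SE 0.17, adjusted p = 0.00786), or -0.56 in the corrected fit (adjusted p = 0.0281). Ttr, transthyretin, abundant in alpha cells, was at 746 to 922.5 CPM on HFHS and 1029 to 1306 CPM on RC, with no overlap (-0.51, SE 0.13, adjusted p = 0.00609). Over all genes tested, 10.2% fell as counted and 6.1% in the corrected fit. Of 12 alpha cell genes tested 5 fell and none rose (median -0.42), and 6 fell in the corrected fit. The others were the homeobox genes Irx1 (8.51 to 14.8 CPM on HFHS, 14.3 to 24.8 CPM on RC, -0.73, SE 0.18) and Irx2 (12.7 to 20.1 CPM on HFHS, 18 to 31.8 CPM on RC, -0.59, SE 0.15), and the protease gene Fap (0.629 to 1.53 CPM on HFHS, 1.29 to 2.86 CPM on RC, -0.82, SE 0.26). Irx1 did not pass in the corrected fit (adjusted p = 0.0682). The summed alpha cell level was 24904 to 31899 CPM on HFHS and 33962 to 49846 CPM on RC.

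Several delta and PP cell genes were lower as counted, and none of those falls passed in the corrected fit. Sst, somatostatin, was at 3231 to 4287 CPM on HFHS (median 3315) and 4269 to 5427 CPM on RC (median 4749). HFHS 13 was the one HFHS library within the RC range, and the log2 fold change was -0.47 (SE 0.14, adjusted p = 0.0165). In the corrected fit it was -0.17 (adjusted p = 0.412). Pyy, peptide YY, had 890 to 1638 CPM on HFHS and 1605 to 2685 CPM on RC (-0.65, SE 0.18, corrected -0.29, adjusted p = 0.252), and Rbp4, retinol-binding protein, a delta cell marker in mouse islets, had 145.1 to 191 CPM and 180 to 239 CPM (-0.40, SE 0.13, corrected -0.12, adjusted p = 0.613). Ppy did not pass as counted (2134 to 5340 CPM on HFHS, 4408 to 8193 CPM on RC, -0.68, SE 0.27, adjusted p = 0.0596). As counted, 9.95% of all genes tested rose and 10.2% fell, against 7.07% and 6.1% in the corrected fit. Of 9 genes 3 fell and 1 rose (median -0.26), against none fallen and 1 risen in the corrected fit and none in either direction without RC 13. The one that rose was Casr, the calcium-sensing receptor, at 82.2 to 94.4 CPM on HFHS and 41.2 to 106.6 CPM on RC, where RC 18 was the highest of all 12 libraries (0.64, SE 0.20).

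Among the steep falls with fully separate groups were 4 neuropeptide genes. Such peptides are made by islet nerves and, for some of them, by endocrine cells. Cartpt, the CART peptide, was read at 0.149 to 3.06 CPM in HFHS islets (median 1.82) and 4.18 to 17.7 CPM in RC islets (median 7.59). The groups did not overlap; HFHS 13 was lowest, RC 13 highest and RC 18 the lowest RC library. The log2 fold change was -2.37 (SE 0.44, adjusted p = 0.000512), and -2.17 in the corrected fit. Tac1, the precursor of substance P, was at 0.298 to 4.49 CPM on HFHS (median 3.18) and 4.77 to 21.5 CPM on RC (median 9.58; -1.90, SE 0.41, adjusted p = 0.00223). Vip, vasoactive intestinal peptide, was at 2.58 to 46.1 CPM on HFHS (median 36) and 59 to 198 CPM on RC (median 89.5; -1.81, SE 0.43, adjusted p = 0.00482). Npy, neuropeptide Y, was at 1.39 to 10.2 CPM on HFHS (median 7.78) and 11.2 to 34.8 CPM on RC (median 19.1; -1.60, SE 0.36, adjusted p = 0.00279). All 4 had the same order at the ends, with HFHS 13 lowest and RC 13 highest of the 12 libraries, and RC 18 lowest among the RC mice. Without RC 13 all 4 still passed.

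Of 16 listed neuropeptides and secreted peptides 15 were tested; 8 fell and 1, Inhbb, rose (median -0.91), against 6 fallen and 1 risen in the corrected fit and 5 fallen without RC 13. The other 4 that fell had groups that overlapped. Adcyap1, the precursor of PACAP, had 0.0396 to 0.504 CPM on HFHS and 0.311 to 1.52 CPM on RC (-1.40), and Gal, galanin, 0.041 to 0.871 CPM on HFHS and 0.508 to 2.18 CPM on RC (-1.26). Penk, the enkephalin precursor, had 4.55 to 12.8 CPM on HFHS and 6.57 to 24.7 CPM on RC (-1.14), and Nmb, neuromedin B, 0.425 to 1.01 CPM on HFHS and 0.665 to 1.92 CPM on RC (-0.91). For Penk and Nmb the overlap came from RC 18 alone. Gal and Penk did not pass in the corrected fit. Iapp, the beta cell peptide of the list, did not pass (0.04, adjusted p = 0.769). The share of all genes tested that fell was 10.2% as counted, 6.1% in the corrected fit and 3.6% without RC 13.

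For the genes of this list, the sequence before the start sites was searched for the letters TGACG on either strand. These letters are the core of the cyclic AMP response element. RefSeq windows (GRCm38.p6, 250 bases before to 50 after the start) were matched for 15 of the 16 genes by symbol, in 19 windows, and 7 genes held the motif; of the 8 that fell, 7 had a window and 5 held it. Among all 32544 windows of that length, 6805 held it (20.9%) and 586 held the full palindrome TGACGTCA (1.8%), in this list held by Cartpt alone, where 2 such motifs overlap. The 250 bases before the start are shown for the 3 of these genes with the steepest falls, 5′ to 3′, with the motif in capitals (TGACG, or CGTCA where it lies on the other strand). They are Cartpt at chr13:99900684-99900933 (minus strand), Tac1 at chr6:7554811-7555060 (plus strand) and Vip at chr10:5638968-5639217 (plus strand).
Cartpt: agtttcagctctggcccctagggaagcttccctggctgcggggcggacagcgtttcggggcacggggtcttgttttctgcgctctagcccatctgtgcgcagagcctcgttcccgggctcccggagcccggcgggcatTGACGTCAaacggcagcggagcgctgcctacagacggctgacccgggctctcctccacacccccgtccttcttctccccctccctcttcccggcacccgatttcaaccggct
Tac1: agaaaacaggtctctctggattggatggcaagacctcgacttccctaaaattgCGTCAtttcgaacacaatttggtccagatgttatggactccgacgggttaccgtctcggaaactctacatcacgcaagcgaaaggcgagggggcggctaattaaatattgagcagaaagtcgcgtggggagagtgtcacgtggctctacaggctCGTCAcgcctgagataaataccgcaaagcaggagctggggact
Vip: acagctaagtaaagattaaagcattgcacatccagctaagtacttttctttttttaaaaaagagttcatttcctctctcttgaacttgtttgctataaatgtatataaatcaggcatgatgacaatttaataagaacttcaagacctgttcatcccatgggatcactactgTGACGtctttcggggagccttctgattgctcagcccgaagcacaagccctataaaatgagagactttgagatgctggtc
The motifs began 197 and 43 bases before the start of Tac1 and 79 bases before that of Vip. A match describes letters in these windows and not the binding of a factor. The counts for this list are per gene and the 20.9% is per window, and a gene can have several windows. Whether the motif has a part in the falls was not tested.

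Genes of nerve and Schwann cells fell beside the neuropeptides. Of 9 tested 6 fell and none rose (median -0.64), with 4 in the corrected fit and 2 without RC 13. Among all genes tested 10.2% fell as counted, 6.1% in the corrected fit and 3.6% without RC 13. Gap43, a growth cone protein, was at 5.74 to 9.11 CPM on HFHS (median 7.4) and 8.33 to 16.2 CPM on RC (median 14.3; log2 fold change -0.81, SE 0.17, adjusted p = 0.00191). Tubb3, neuronal tubulin, was at 25.8 to 33.3 CPM on HFHS and 31 to 54.8 CPM on RC (-0.53, SE 0.11). The Schwann cell genes Sox10 (1.44 to 4.27 CPM on HFHS, 2.46 to 6.7 CPM on RC, -0.91, SE 0.28) and Gfap (0.546 to 3.07 CPM on HFHS, 1.64 to 5.36 CPM on RC, -0.95, SE 0.29) fell too, Sox10 not in the corrected fit (adjusted p = 0.0876). Outside that list, 2 neuronal genes stood among the 12 largest falls: Prph, the intermediate filament of peripheral neurons, at 1.69 to 10.5 CPM on HFHS and 10.2 to 32.5 CPM on RC (-1.41, SE 0.34), and Sncg, gamma-synuclein, at 3.33 to 13.5 CPM and 10.3 to 37.7 CPM (-1.28, SE 0.29). The summed level of the 9 list genes was 62.7 to 87.6 CPM on HFHS and 74.7 to 128.01 CPM on RC, with RC 18 at the bottom of the RC range. How far this share of nerve and glial RNA takes part in the falls of the neuropeptides was not tested.

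Several stellate cell, fibroblast and vessel genes also fell. For comparison, 10.2% of all genes tested fell as counted, 6.1% in the corrected fit and 3.6% without RC 13. Of 15 stellate cell and fibroblast genes 9 fell and none rose (median -0.82), and again 9 fell in the corrected fit, against 5 without RC 13. Mfap4, a microfibril protein, had 2.13 to 3.84 CPM on HFHS (median 3.12) and 4.62 to 11.9 CPM on RC (median 9.42; log2 fold change -1.52, SE 0.35, adjusted p = 0.00405). Col1a1, the main fibrillar collagen, had 46.6 to 121.6 CPM on HFHS and 124.8 to 196 CPM on RC, separate but close between HFHS 16 and RC 18 (-1.11, SE 0.37, adjusted p = 0.0292). Pdgfrb, the pericyte and stellate cell receptor, fell by 0.46 on the log2 scale (SE 0.12), Thy1 by 0.99 (SE 0.26) and Sparc, a matrix protein, by 0.52 (SE 0.15). Smoc2, a matrix-associated calcium-binding protein outside the list, had separate groups at 1.15 to 4.25 CPM on HFHS and 4.62 to 10.4 CPM on RC (-1.65, SE 0.50). The summed stellate list was at 733 to 1378 CPM in HFHS and 1259 to 1888 CPM in RC libraries. Of 13 endothelial genes 7 fell and none rose (median -0.23), with 3 in the corrected fit and 2 without RC 13; Egfl7 was at 33.9 to 41.5 CPM on HFHS and 38.3 to 64.4 CPM on RC (-0.49, SE 0.12), Esam, a junction protein, at 33.1 to 43.4 CPM and 35.9 to 54.8 CPM (-0.38, SE 0.09), and Vwf, von Willebrand factor, at 12.1 to 25.4 CPM and 20.2 to 63.7 CPM (-1.20, SE 0.39).

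Exocrine and immune markers varied widely between mice. As counted, 9.95% of all genes tested rose and 10.2% fell. The share that fell was 6.1% in the corrected fit and 3.6% without RC 13. The summed level of 32 acinar genes was 2785 to 7427 CPM in HFHS and 2704 to 19574 CPM in RC libraries, with RC 15 at the top, and none of the 29 tested passed (median -0.74; Try4, a trypsin, -1.20, adjusted p = 0.172). Of 13 duct genes 3 fell and none rose (median -0.29), with 1 in the corrected fit and 1 without RC 13. These were Krt19, a keratin, at 2.58 to 4.04 CPM on HFHS and 2.81 to 12.3 CPM on RC (-1.41, SE 0.45, corrected adjusted p = 0.0588), the chloride channel gene Cftr (-1.54), and the adhesion gene Epcam, also made by endocrine cells (-0.19, corrected 0.01). None of 14 macrophage genes passed (median 0.29) and none of 12 lymphocyte genes (median 1.15). Ms4a1, a marker of B cells, was at 0.533 to 29.5 CPM on HFHS and 0.435 to 6.84 CPM on RC, and the highest library was HFHS 16 (adjusted p = 0.214). Il1r1, the interleukin-1 receptor, was the one gene of the inflammation list that passed, at 593 to 798 CPM on HFHS and 439 to 642 CPM on RC (0.40, SE 0.10, adjusted p = 0.00713).

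Among genes past the threshold with a mean of at least 5 CPM, the 3 numerically largest falls rested on a pair of chow mice. Fabp2, the intestinal fatty acid-binding protein, had 32.7 CPM in RC 13 and 39.2 CPM in RC 18, and no more than 3.52 CPM in the other RC libraries, while the HFHS libraries had 0 to 2.21 CPM. Rbp2, an intestinal retinol-binding protein, had 24.8 and 27.8 CPM in the same 2 RC libraries, and Fcgbp, a mucus protein, 43.6 and 63 CPM. The log2 fold changes of Fabp2, Rbp2 and Fcgbp were -4.13, -3.36 and -3.29. Each lost significance without RC 13, and Fabp2 and Rbp2 also without RC 18 and without any of HFHS 13, 15, 16 and 18.

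**Figure D3:**
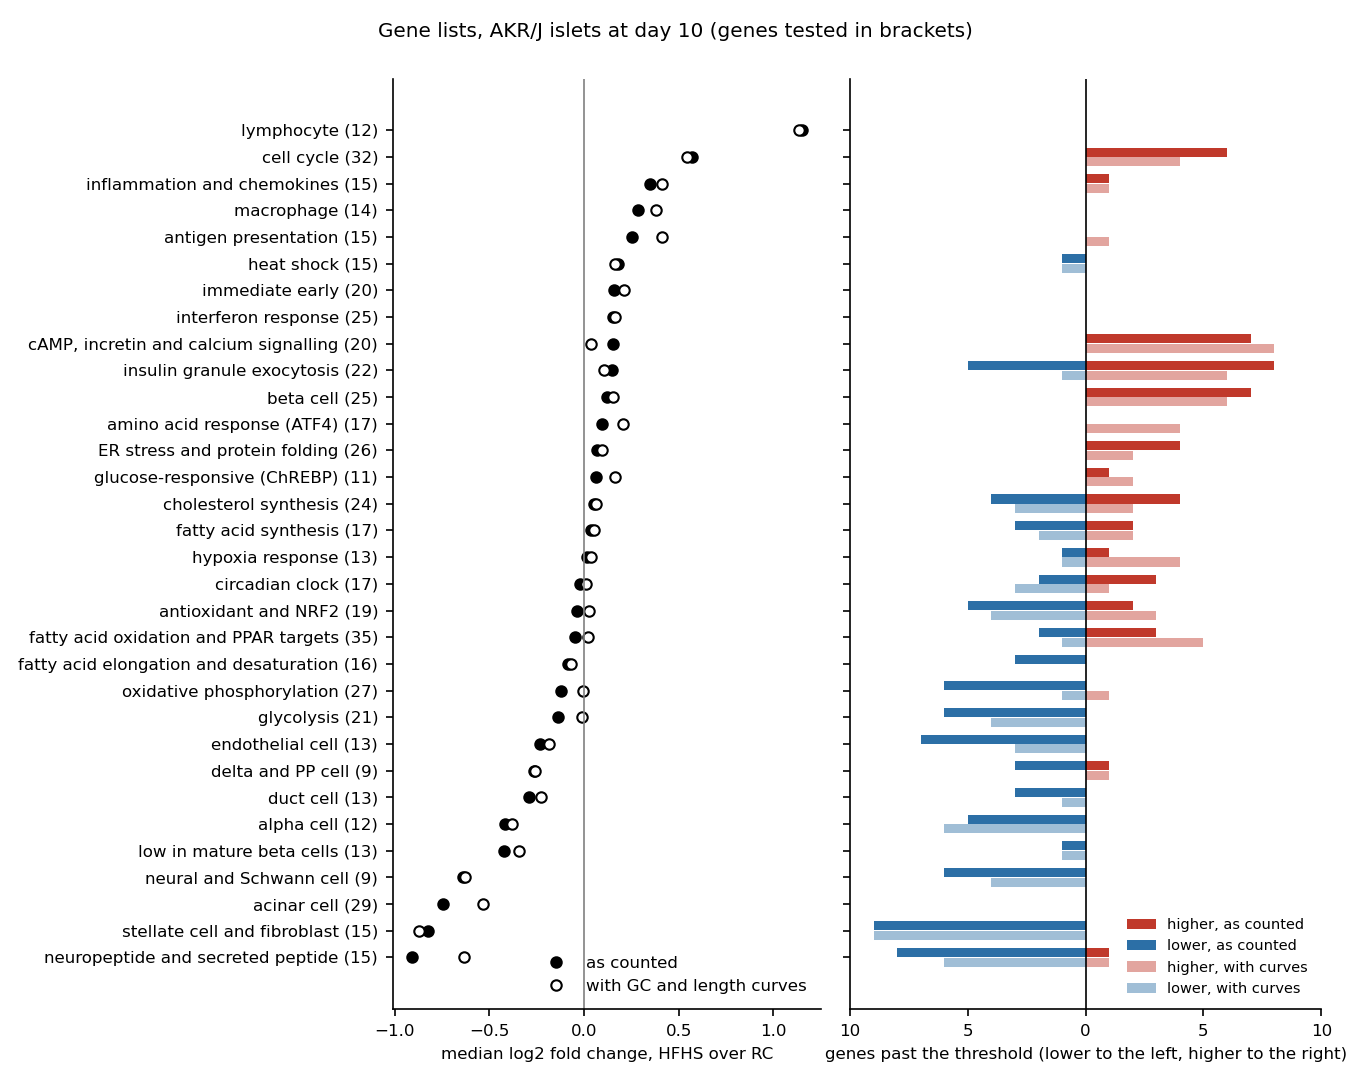
For each gene list with at least 9 genes tested, the median log2 fold change, HFHS over RC (left), and the number of genes past the threshold, lower to the left and higher to the right (right), as counted and with GC and length curves removed. Stellate, neural, alpha cell and neuropeptide lists hold falls and at most 1 rise; cyclic AMP, beta cell and cell cycle lists hold rises and no falls; acinar and lymphocyte lists have medians far from 0 (-0.74 and 1.15) with no gene past the threshold.

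Among metabolic genes outside fat oxidation, shifts were small. For comparison, 9.95% of all genes tested rose as counted and 10.2% fell. Insig1, which retains the sterol sensor complex in the ER, was at 89.3 to 109.1 CPM on HFHS (median 100) and 61.4 to 81.4 CPM on RC (median 75.5). The groups were separate, with a log2 fold change of 0.45 (SE 0.11, adjusted p = 0.00595; corrected 0.43). By contrast, 2 enzymes of sterol synthesis fell with separate groups: Mvk, mevalonate kinase, at 12.5 to 14 CPM on HFHS and 15.8 to 21.4 CPM on RC (-0.48, SE 0.09), and Tm7sf2, a sterol reductase, at 9.79 to 12.7 CPM and 14 to 19.3 CPM (-0.49, SE 0.10). In all, 4 of 24 cholesterol genes rose and 4 fell (median 0.05), against 3 and 2 without RC 13 and 2 and 3 in the corrected fit. Of 17 fatty acid synthesis genes 2 rose and 3 fell (median 0.04), against none and 1 without RC 13: Acly, ATP citrate lyase (2176 to 2420 CPM on HFHS, 1724 to 2202 CPM on RC, 0.22, SE 0.06), and Gpam, which starts glycerolipid synthesis (0.43, SE 0.13), were up, and Acacb, whose product malonyl-CoA restrains carnitine palmitoyltransferase 1, was down (6.75 to 10.1 CPM on HFHS, 9.03 to 11 CPM on RC, -0.32, SE 0.09). Elovl2, the fatty acid elongase that the study's title names, did not pass, at 19.6 to 24.1 CPM on HFHS and 14.4 to 22.2 CPM on RC (0.21, SE 0.11, adjusted p = 0.156).

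Glycolysis and respiratory chain genes that passed as counted were lower. The shares over all genes tested were 9.95% risen and 10.2% fallen, for these lists and the antioxidant and clock lists below. Of 21 glycolysis genes 6 fell and none rose (median -0.14), with 4 in the corrected fit and 2 without RC 13. Slc2a1, the GLUT1 transporter, was at 15.5 to 19.1 CPM on HFHS and 20.5 to 24.4 CPM on RC, with separate groups (-0.42, SE 0.11), as was Pfkl, the liver-type phosphofructokinase, at 69.9 to 82.3 CPM and 87.5 to 101.98 CPM (-0.29, SE 0.06), while Hk1, a hexokinase kept low in mature beta cells, overlapped (-0.42, SE 0.13). Of 27 oxidative phosphorylation genes 6 fell (median -0.12), led by Uqcrc1 of complex III (-0.18, SE 0.06), but in the corrected fit 1 rose and 1 fell, and none passed without RC 13. Antioxidant genes split: 2 of 19 rose and 5 fell (median -0.04), against 1 and 3 without RC 13. Gpx3, a secreted glutathione peroxidase, had 453 to 540 CPM on HFHS (median 498) and 676 to 854 CPM on RC (median 801; -0.67, SE 0.11, adjusted p = 0.000187). The groups were separate, as they were for the glutathione transferases Gstm1 (12.4 to 17.1 CPM on HFHS, 17.3 to 25.8 CPM on RC, -0.75, SE 0.14) and Gsta4 (0.546 to 1.98 CPM on HFHS, 2.46 to 6.25 CPM on RC, -1.61, SE 0.34). Gclm, of glutathione synthesis, rose as counted (0.21, SE 0.05) and not in the corrected fit (adjusted p = 0.224). Of 17 clock genes 3 rose and 2 fell (median -0.02), against none and 1 without RC 13. Cry1, a repressor of the clock, fell with separate groups (20.9 to 27.6 CPM on HFHS, 28.5 to 34.5 CPM on RC, -0.35, SE 0.13), while Clock and Nr1d2 rose (0.50 and 0.62). The core clock gene Arntl did not pass (-0.14, adjusted p = 0.258), and the hour of collection is not in the labels.

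Other lists held few calls as counted, where 9.95% of all genes tested rose and 10.2% fell. Of 16 fatty acid elongation and desaturation genes 3 fell and none rose as counted, led by Tecr, the enoyl-CoA reductase of chain elongation (66.6 to 74.5 CPM on HFHS, 75.2 to 94.9 CPM on RC, -0.31), and none passed in the corrected fit. Among 13 hypoxia genes 1 rose and 1 fell, among 11 glucose-responsive ChREBP targets 1 rose, among 15 heat shock genes Dnajb5 fell (7.89 to 11.7 CPM on HFHS, 12 to 15.7 CPM on RC, -0.58), and among 13 genes that mature beta cells keep low 1 fell. In the corrected fit 4 hypoxia genes rose and 1 fell, and 2 ChREBP targets rose, where 7.07% of all genes rose and 6.1% fell. None of 17 amino acid response (ATF4) genes, 25 interferon response genes, 15 antigen presentation genes, 20 immediate early genes or 6 Reg genes passed as counted; the corrected fit gave 4 risen ATF4 genes and 1 risen antigen presentation gene, and without RC 18 there were 4 risen interferon genes. Of 4 adipocyte genes tested Fabp4 fell (-0.64), and the adipocyte hormone Lep was at 0 in all 12 libraries.

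The day 10 response was set against AKR/J mice at the other days in the same fit, with other mice at each day. Genes past the threshold numbered 4590 at day 2 (29.7%; 16.1% higher, 13.6% lower), 533 at day 30 (3.45%; 1.75% higher, 1.7% lower) and 5468 at day 90 (35.4%; 16.9% higher, 18.4% lower). The diet effect of day 10 differed from that of day 2 for 2795 genes (18.1%), from day 30 for 643 (4.16%) and from day 90 for 4601 (29.8%). Genes called with the same sign at both days made up 25.8% of the day 10 calls and 17.5% of the day 2 calls. For day 30 these shares were 4.79% and 27.9%, and for day 90 they were 23.8% and 13.5%. Of the 3113 day 10 calls, 963 passed at day 2 and 1109 at day 90, in either direction. Over all genes tested, 29.7% and 35.4% passed on those days. The day 10 sign was kept by 803 of the 963 and 740 of the 1109. Past the threshold or not, 70.16%, 57.15% and 51.11% of the day 10 calls had the same sign at days 2, 30 and 90. Whether day 10 calls recurred more often than other genes was not tested. With every library of the series in one fit, the diet effect of day 10 differed from those days for 0.933%, 0% and 2.54% of the genes. The share against day 30 moved most: no gene passed without RC 13 or with GC curves removed, where 3348 and 3147 genes had an unadjusted edgeR p under 0.05, and 1 gene passed in the corrected fit. It was 0.013% without RC 15, 0.0259% without RC 17, 0.0388% without HFHS 18, 0.873% without HFHS 13, 1.56% without HFHS 15, 2.44% without HFHS 14, 2.45% without HFHS 16, 9.05% without RC 16 and 20.2% without RC 18.

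Cpt1a passed at days 10, 30 and 90 and not at day 2. Its log2 fold change was -0.03 (SE 0.13) at day 2, 0.92 at day 10, 0.71 (SE 0.11) at day 30 and 0.57 (SE 0.11) at day 90, and day 10 exceeded day 2 by 0.95 (SE 0.18, adjusted p = 0.000265). Tacc2 ran alike, at -0.08, 0.77, 0.45 and 0.46 (day 10 minus day 2, 0.85, adjusted p = 0.000107). Gcg was at 0.45 at day 2 (adjusted p = 0.0524), -0.66 at day 10, -0.34 at day 30 and -1.06 at day 90, and the day 10 effect lay 1.11 below that of day 2 (difference -1.11, SE 0.25, adjusted p = 0.0017). Ttr rose at day 2 (0.50), fell at day 10 (-0.51), did not pass at day 30 (-0.01) and rose at day 90 (0.33). Of the alpha cell list, 2 rose and 1 fell at day 2, 5 fell at day 10, 1 fell at day 30, and 2 rose and 8 fell at day 90. Insig1 also turned, at -0.34 at day 2, 0.45 at day 10, 0.55 at day 30 and -0.05 at day 90 (day 10 minus day 2, 0.80, adjusted p = 0.00072).

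Several neuropeptide genes also fell at day 90. Cartpt stood at -0.34 (SE 0.43) at day 2, -2.37 at day 10, -1.60 at day 30 and -1.51 at day 90, and day 10 differed from day 2 (-2.02, SE 0.61, adjusted p = 0.0171). Npy stood at -0.10, -1.60, -0.90 and -2.03 on those days, and Vip at -0.42, -1.81, -1.18 and -2.50; neither passed at days 2 and 30, and the difference of Vip between days 10 and 2 did not pass (adjusted p = 0.102). Of the 15 list genes tested 1 fell at day 2, 8 at day 10, 3 at day 30 and 9 at day 90. Gucy2c rose on each of the 4 days, by 1.07, 1.13, 0.66 and 1.64, and no difference from day 10 passed. Glp1r passed at day 10 and on none of the other days (-0.22 at day 2, 0.60 at day 10, 0.17 at day 30, -0.10 at day 90), and the day 10 effect exceeded those of day 2 (0.82, adjusted p = 0.00473) and day 90 (0.70, adjusted p = 0.00467) but not past the threshold that of day 30 (0.43, adjusted p = 0.13).

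Several lists with most members higher and past the threshold at days 2 and 90 held few such members at day 10. Cell cycle genes rose in 30 of 32 cases at day 2 and in 30 at day 90. They rose in 6 at day 10 (18 without RC 18) and in 5 at day 30. Past the threshold or not, 32, 31, 32 and 32 of the 32 were positive at days 2, 10, 30 and 90. Their medians were 1.18, 0.57, 0.55 and 0.85. Over all genes tested, 16.1%, 9.95%, 1.75% and 16.9% rose on those days. ER stress genes rose in 21 of 26 cases at both day 2 and day 90, against 4 at day 10. Oxidative phosphorylation genes rose in 25 of 27 cases at day 2 and 17 at day 90, and in none at day 10. In the corrected fit 1 rose at day 10. The counts for days 2 and 90 are as counted only. At day 2 the length slopes were -0.308 to 0.0288 per doubling in HFHS libraries and -0.164 to -0.0272 in RC libraries. At day 90 they were -0.216 to 0.0166 on HFHS and -0.046 to 0.0915 on RC. Their part in these differences between days was not tested. Lig1, a DNA ligase of replication, rose at day 2 (0.76) and not at day 10 (-0.18, adjusted p = 0.169), a difference of -0.94 (SE 0.14, adjusted p = 2.36e-05). Slc38a5, an amino acid transporter, had 0.95 at day 2 and -0.64 at day 10 (difference -1.59, SE 0.23), and Zfyve21, a focal adhesion protein, 0.35 and -0.45 (difference -0.80, SE 0.11). Against day 90, Gc, the vitamin D-binding protein made by alpha cells, was at 0.03 at day 10 and 1.70 at day 90 (difference -1.66, SE 0.21, adjusted p = 1.97e-06), Igfbp3 at -0.31 and 1.01 (difference -1.33), and Zdhhc2, a palmitoyltransferase, at 0.47 and -0.71 (difference 1.18). Snap25 fell at day 10 (-0.33) and rose at day 90 (0.34; difference -0.67, SE 0.09, adjusted p = 1.06e-05), and Ust, a sulfotransferase, went the other way (0.51 and -0.28).

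**Figure D4:**
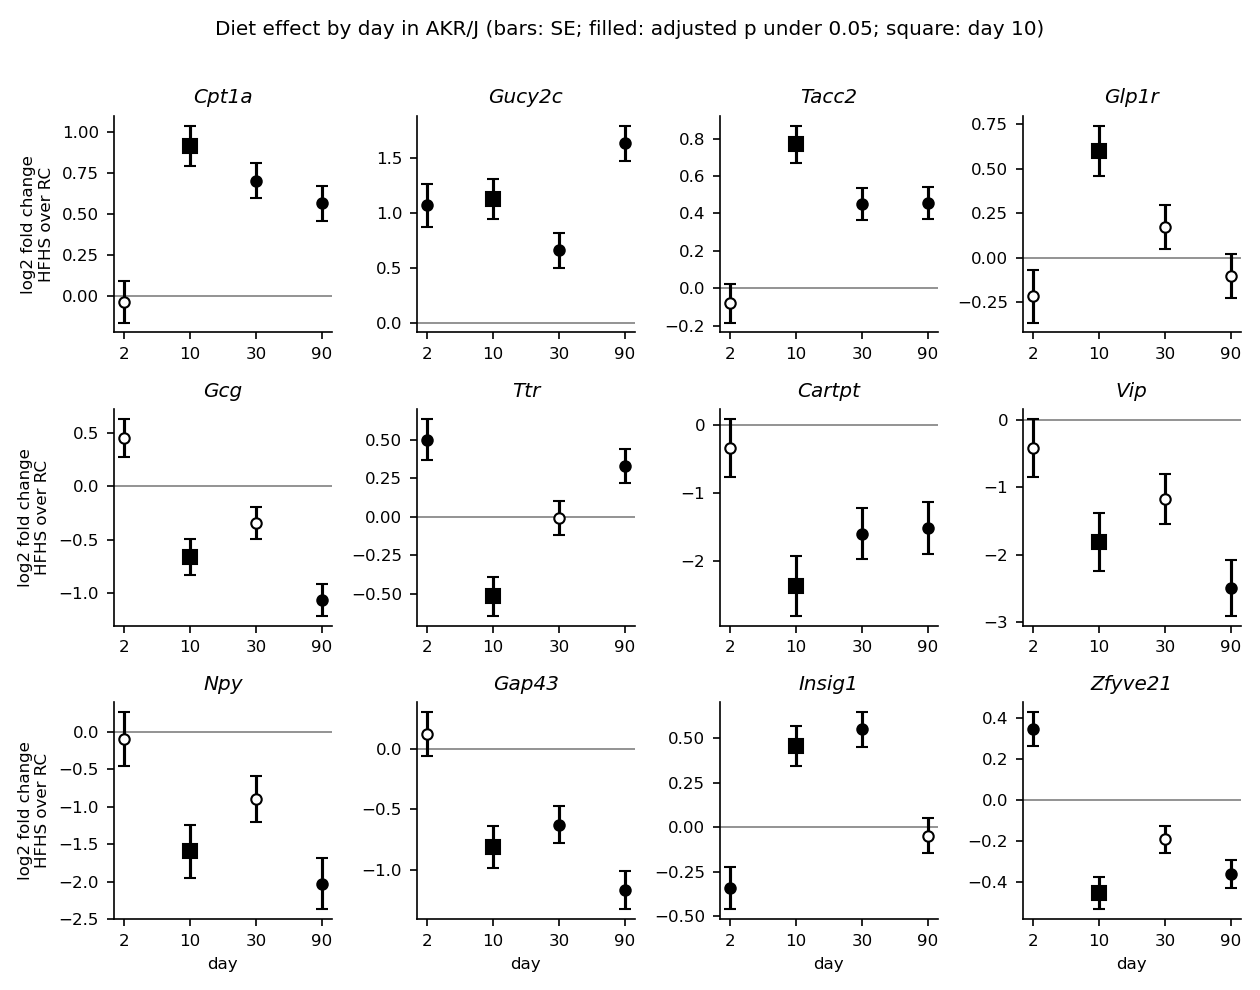
Log2 fold change (HFHS over RC, bars SE) of 12 genes in AKR/J islets at days 2, 10, 30 and 90, with day 10 as a square and filled symbols past the threshold. Cpt1a, Tacc2 and Glp1r are near or below 0 at day 2 and positive at day 10; Gcg, Ttr and Zfyve21 are above 0 at day 2 and below 0 at day 10; Gucy2c is positive at all 4 days.

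Among strains at day 10, the AKR/J diet effect differed from the mean of the other 5 (129S2/SvPas, A/J, BALB/cJ, C57Bl/6J and DBA/2J) for 85 genes upward and 59 downward of 15777 (0.913%) in a fit of the 68 day 10 libraries. Without single libraries that count was 39 (RC 13), 47 (HFHS 17), 65 (RC 17), 77 (HFHS 13), 81 (HFHS 14), 87 (RC 16), 93 (RC 15) or 527 (RC 18), and it was 334 with GC curves removed, 246 in the corrected fit and 2 with every library of the series. It was 2111 (13.3%) without the 6 day 10 libraries of other strains whose slope on GC content lay beyond 0.5 log2 units per 10 percentage points. In the fit of all 68 libraries 275 genes passed in AKR/J itself, 2105 in BALB/cJ (13.3%), 1030 in A/J (6.53%), 17 in 129S2/SvPas (0.108%), 4 in C57Bl/6J (0.0254%) and none in DBA/2J, where 567 had an unadjusted edgeR p under 0.05. Cpt1a rose in other strains too: its log2 fold change was 0.92 in C57Bl/6J, 0.77 in BALB/cJ, 0.56 in A/J and 0.98 in 129S2/SvPas, each past the threshold, and 0.32 in DBA/2J (adjusted p = 1), and AKR/J minus the other strains was 0.22 (SE 0.13, adjusted p = 0.45).

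The genes whose day 10 diet effect differed in AKR/J, in the fit of 68 libraries, included several of those described. Gucy2c rose by 0.88 more in AKR/J than in the other strains (SE 0.21, adjusted p = 0.0261), where its effects were 0.11 to 0.53 and passed in none. Gcg lay 0.72 lower (difference -0.72, SE 0.16, adjusted p = 0.012), with -0.22 to 0.35 in the other strains. Npy (difference -1.18, adjusted p = 0.0374) and Cartpt (-1.71, adjusted p = 0.0449) fell more in AKR/J, although Cartpt fell in A/J as well (-1.37, adjusted p = 0.0484). Tac1 and Vip did not differ past the threshold (-1.32, adjusted p = 0.135, and -0.98, adjusted p = 0.317). Gap43 (-0.76) and Insig1 (0.46) also differed. The smallest p-values belonged to genes not named so far. Serpine2, a protease inhibitor, was at 18.2 to 26.9 CPM in HFHS and 27.1 to 37.1 CPM in RC islets of AKR/J, separate groups with a log2 fold change of -0.65, and between -0.15 and 0.07 in the other strains (difference -0.61, SE 0.10, adjusted p = 0.00046). Chst11, a chondroitin sulfotransferase, was at 160 to 169 CPM on HFHS and 91.9 to 144.1 CPM on RC (difference 0.60, SE 0.10), and Nbas, of Golgi-to-ER transport, at 171 to 197 CPM and 119.2 to 163 CPM (0.57, SE 0.09). Tpm1, a tropomyosin, fell in AKR/J (-0.36) and rose in BALB/cJ (0.32) and A/J (0.38), a difference of -0.53 (SE 0.09). Sgce, epsilon-sarcoglycan, was at 9.26 to 12.1 CPM on HFHS and 14.3 to 20.7 CPM on RC (difference -0.76, SE 0.13), and Cyfip2, an actin regulator, at 528 to 619 CPM and 378 to 582 CPM (0.45, SE 0.08). Of the 12 genes with such a difference named here, Npy, Gap43, Insig1, Nbas and Cyfip2 did not pass in the corrected fit (adjusted p = 0.108, 0.0805, 0.131, 0.298 and 0.149). With every library of the series in one edgeR fit, only Tpm1 and Sgce of the 12 passed (adjusted p = 0.00502 and 0.0426).

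**Figure D5:**
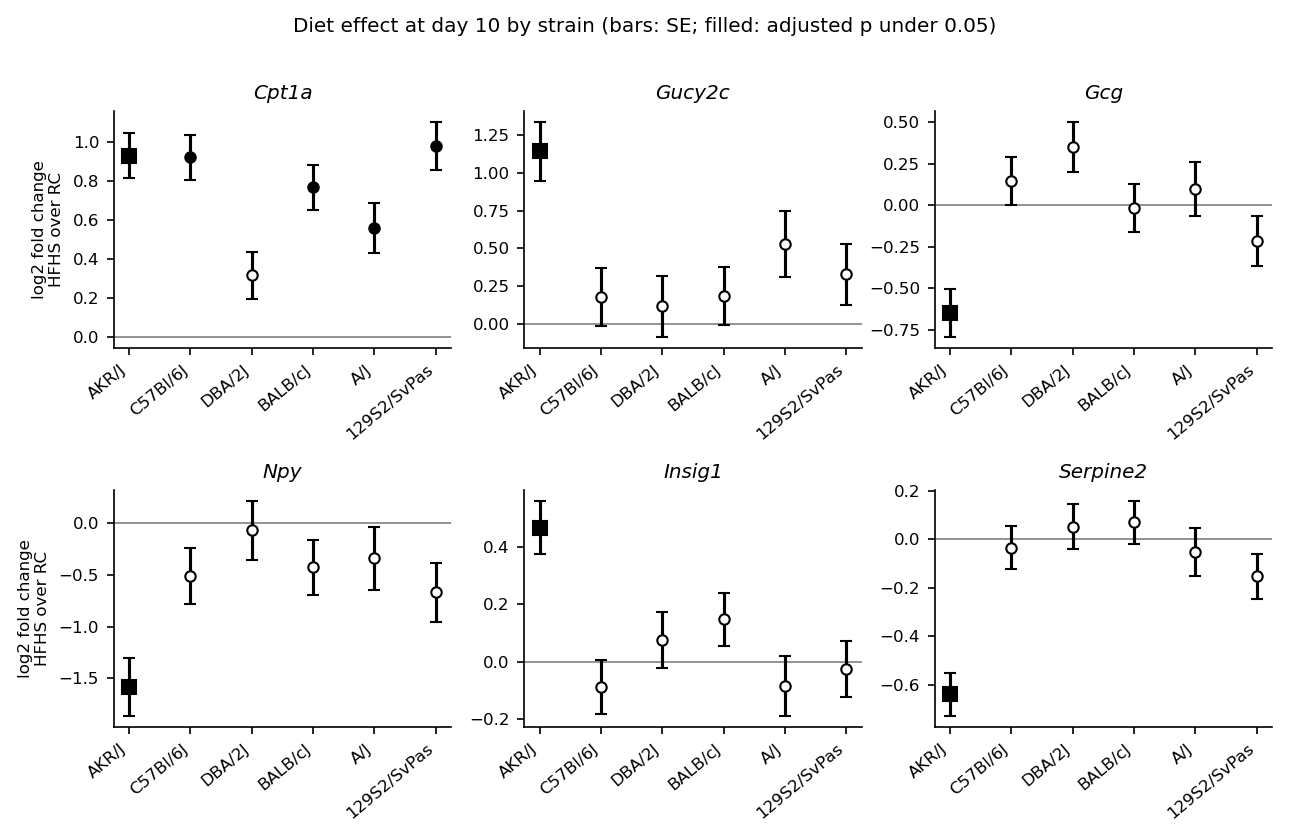
Log2 fold change (HFHS over RC, bars SE) at day 10 in AKR/J (square) and the other 5 strains, from the fit of 68 libraries, for 6 genes, with filled symbols past the threshold. Cpt1a is positive in all 6 strains; Gucy2c and Insig1 are higher, and Gcg, Npy and Serpine2 lower, in AKR/J than in any of the other 5.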

How the data were processed

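Islet RNA was sequenced with a kit that does not keep strand, per the labels' protocols, so overlapping antisense genes cannot be told apart. The authors deposited whole-number read counts per gene; TopHat 1.3.3, SAMtools 0.1.16, HTSeq 0.5.3p3, edgeR and the mouse build mm9 are named in the submitters' processing notes. The series holds 338 libraries. A second table deposited by the authors holds normalized values on a log2 scale and was used only as an alternative. Replicates were mice with different numbers, 1 library each.

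From the deposited counts, edgeR 4.0.16 was fitted in R 4.3.3 (TMM scaling, low-count filter, robust quasi-likelihood) to the 55 AKR/J libraries in 8 groups, with the day 10 diet effect and its differences from other days as contrasts, and to the 68 day 10 libraries of 6 strains. The prior count was 2. Each standard error was taken as |log2 fold change| over the root of its F statistic. CPM used each library's total of assigned reads, without TMM factors, and are not corrected for gene length. CPM ranges and statements on overlap are therefore scaled differently from the fold changes. The count of genes for which each library lay nearest the other group used TMM-scaled log2 values. GC content and transcript length came from a GRCm38 annotation matched by symbol (15267 of 15465 genes, 98.7%), not from mm9, and promoters from RefSeq. The AKR/J fit was tested on simulated counts with the same spread for every gene. These had no slopes on GC content or length and no deviating library, so that test does not cover such features. Alternatives were other tools, filters and sets of libraries, each library left out, an acinar covariate, the replicate block, and GC and length curves; the curves for day contrasts and those for length, as well as the 68 libraries for the AKR/J effect, were added after seeing the data.

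The libraries, gene lists and tests were chosen with earlier results of these data known. Named genes were the 12 largest rises and 12 largest falls past the threshold with a mean of at least 5 CPM, up to 4 members per list with the smallest p, the 6 smallest p per difference, the islet hormone genes and Elovl2; predicted genes were skipped, and some genes are not reported here. Further list members named in the text were chosen after their values were seen. Intervals and p-values cover the spread between these mice.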

Additional observations from a re-analysis of the deposited data

Results flagged for a closer look

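Within groups of 6 mice, 23 of 304 sets of values had 1 library far from the rest (Dixon test, 95% level); chance gives about 1 in 20. RC 18 gave 12 of them: it was the highest RC library for Lmbrd2 (35.5 CPM), Mib1 (52 CPM), Rora (8.99 CPM), Dennd4c (180.2 CPM), Casr (106.6 CPM), Tpx2 (5.01 CPM), Cenpe (3.56 CPM), Ern1 (103.3 CPM), Cyfip2 (582 CPM) and the summed cell cycle list (248.7 CPM), and the lowest for Gstm1 (17.3 CPM) and the summed list of neuropeptides and secreted peptides (17343 CPM). That sum includes the beta cell peptide Iapp, and the fallen neuropeptides described above make up little of it. HFHS 16 was high for the B cell gene Ms4a1 (29.5 CPM), the summed lymphocyte list (233.9 CPM), Slc2a1 (19.1 CPM) and the summed genes that mature beta cells keep low (224.9 CPM). HFHS 17 was high for Gucy2c (109.8 CPM) and Ero1lb (638 CPM), and HFHS 13 was high for Sst (4287 CPM) and low in assigned reads (20149000). RC 15 was high for Try5 (152.7 CPM) and the summed acinar list (19574 CPM), and RC 17 for Pfkl (101.98 CPM).

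The diet effect differed by its own test (edgeR interaction contrast, adjusted p under 0.05) between day 10 and day 2 for 18.1% of genes tested. Named among them were Cpt1a (0.95), Tacc2 (0.85), Glp1r (0.82), Insig1 (0.80), Dcdc2a (0.97), Cartpt (-2.02), Npy (-1.50), Gcg (-1.11), Gap43 (-0.94), Zfyve21 (-0.80), Slc38a5 (-1.59), Txnl1 (-0.59) and Lig1 (-0.94), as log2 differences, day 10 minus day 2. Against day 30 it differed for 4.16%, with Dcdc2a (0.59), Hace1 (0.38), Pvrl3 (0.39), Gstt2 (-0.63), Arntl (0.62) and Ermp1 (0.43) named; these 6 all lost significance without RC 13 and with GC and length curves removed. Against day 90 it differed for 29.8%, with Glp1r (0.70), Zdhhc2 (1.18), Ust (0.79), Snap25 (-0.67), Gc (-1.66), Igfbp3 (-1.33) and Ache (-0.99) named.

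AKR/J differed from the mean of the other 5 strains at day 10 for 0.913% of genes tested. With every library of the series in one fit, only Tpm1 and Sgce passed among the genes named here. Named were Gucy2c (0.88), Insig1 (0.46), Nbas (0.575), Chst11 (0.60), Cyfip2 (0.45), Cartpt (-1.71), Npy (-1.18), Gcg (-0.72), Gap43 (-0.76), Serpine2 (-0.61), Tpm1 (-0.53) and Sgce (-0.76), as AKR/J minus the others on the log2 scale; Npy, Gap43, Insig1, Nbas and Cyfip2 lost significance with GC and length curves removed.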

How the results depend on the processing

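The share of genes tested that differed at day 10 (20.1%) ran between 7.27% (without RC 13) and 31.9% (without RC 18) as each library was left out. It was 12.1% with the 12 libraries alone, 1.74% with the day 10 libraries of all strains, 0.145% with every library of the series, 13.2% with GC and length curves, and 36.3% with limma voom and sample weights; DESeq2 called 3020 genes. Without one library at a time, the shares of differing effects ran between 12.7% and 24.4% against day 2, 0% and 20.2% against day 30, 24.3% and 36.5% against day 90, and 0.247% and 3.34% against other strains. One fit of every library gave 0.933%, 0%, 2.54% and 0.0121% for these contrasts. GC curves gave 0% against day 30 and 2.12% against strains, and GC and length curves 0.00647% and 1.56%. Without the 6 libraries with GC slopes beyond 0.5 the strain share was 13.3%. Mouse numbers are shared between diets but did not pair the libraries: correlations of same-numbered deviations ran between -0.232 and 0.216, and no library correlated best with its own number. With the replicate block 3391 genes passed at day 10, 8.39% against day 30 and 0% against strains, where 1260 genes had an unadjusted edgeR p under 0.05.

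Of 4058 values of named genes under alternatives, 3427 kept direction and side of the threshold, 580 lost and 44 gained significance, 1 (Ins2, 0.20 with GC and length curves) turned positive and passed, and 6 called values reversed, all with GC and length curves: Epcam (0.0085), Cox4i1 (0.0219), Hace1 (-0.11; day 30 difference -0.0786) and Pvrl3 (-0.10; day 30 difference -0.0052). The cause was not tested. Genes under about 1 CPM rest on few reads, and small changes there were not detectable at this depth.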

Other observations

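The interferon response list was high in some mice of each diet at day 10. The summed level of its 25 genes was 234.5, 245.5, 279.6, 822.5, 398.7 and 872.5 CPM in HFHS mice 13 to 18 and 275.2, 276.1, 282.4, 331.7, 447.9 and 657.8 CPM in RC mice 13 to 18. Nlrc5, the regulator of MHC class I genes, was at 25.3 CPM in HFHS 16 and 21.7 CPM in HFHS 18, and at 12.1 CPM in RC 18 and 5.81 CPM in RC 17. Nlrc5 did not pass between diets (log2 fold change 1.31, adjusted p = 0.229). The summed antigen presentation list was at 837 to 3223 CPM in HFHS libraries and 1039 to 1866 CPM in RC libraries.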
